A study of Mus musculus with 6 samples.

Results

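Arginine metabolism was followed in 6 whole mammary tumours through 8 genes: the arginases Arg1 and Arg2, the inducible nitric oxide synthase Nos2, the cationic amino acid transporters Slc7a1 and Slc7a2, the enzymes Ass1 and Asl that rebuild arginine from citrulline, and the ornithine decarboxylase Odc1. The genes were chosen by name. Every probe set to which the authors' deposited annotation gives exactly 1 of these symbols was taken, which gave 15 probe sets of the 45101 on the array. Another 2 probe sets list Odc1 together with other genes and were not taken.

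All tumours grew from 4T1.2 cells, which descend from the mouse mammary carcinoma line 4T1 and form metastases, in female Balb/c mice that were 6 to 8 weeks old when obtained. The mice received 100000 cells in the 4th inguinal fat pad of the mammary gland, and tumours were removed at about 0.3 g. In the control tumours (n = 3) the cells carried the retroviral vector pBabepuro, and in the Bmp4 tumours (n = 3) they carried pBabepuro with murine Bmp4, a secreted signalling protein related to TGF-beta. The labels say neither whether each cell population was a clone or a pool nor that each tumour came from its own mouse, and the p-values therefore reflect how far these 6 tumours vary, which may be technical. The hosts keep their immune cells, and a whole tumour mixes cancer cells with host cells.

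Arginine is a branch point. Arginases split it into urea and ornithine, and ornithine feeds polyamines through ornithine decarboxylase and proline through ornithine aminotransferase. Nitric oxide synthases turn arginine into nitric oxide and citrulline, and argininosuccinate synthase and lyase convert citrulline back to arginine. In mouse macrophages, Arg1 and Nos2 are known as markers of opposed activation states, and arginine uptake and breakdown by myeloid cells is known to restrain T cells.

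The values are log2 expression per probe set, so a difference of 1 is a doubling. The array of control tumour 1 stood apart. Its correlation with any other array was 0.654 to 0.720 over 45037 probe sets (a correlation across probe sets, not replicates), while pairs of the other 5 arrays reached 0.961 to 0.993. The values of control tumour 1 had an interquartile range of 2.25, and those of the rest 3.35 to 3.77, with control tumour 2 at 3.35. Among the brightest 25% of probe sets it was the lowest of the 6 arrays for 77.5% of them, with a median of -1.73 against the mean of the other 5. Among the dimmest 25% it was the highest for 82.1%, with a median of 0.75. The excess of 3' over 5' signal for Actb, larger in degraded RNA, was 2.62 to 5.64 across control tumours, against 1.44 to 2.33 across Bmp4 tumours, so it separated the groups with or without control tumour 1. The same measure for Gapdh overlapped with all 6 tumours, at 2.46 to 5.31 and 1.62 to 3.13. Without control tumour 1 it separated the groups too, with control tumours 2 and 3 at 5.31 and 3.93. The hybridization controls, added after labelling, averaged 10.66 to 13.01 and 10.04 to 10.30, without overlap. Bmp4 itself, measured by 1422912_at, was 6.48, 5.93 and 4.99 across control tumours 1 to 3, against 5.04, 4.94 and 5.51 across Bmp4 tumours 1 to 3. The labels do not say whether that probe set reads the vector's insert, and it checks no label. Of 8 epithelial markers 4 were positive and 4 negative in both settings. Krt8 lay between 12.10 and 13.03 on all 6 arrays and Krt18 between 9.82 and 12.07. Epcam was lower in every Bmp4 tumour (-0.51, then -0.37), Krt7 differed by -0.91 and -0.71, and Cdh1 by -0.29 and -1.25 (limma adjusted p = 0.268 without control tumour 1). Each difference below is given with all 6 tumours and then without control tumour 1.

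Arg1 and Asl were the genes of the set whose Bmp4 tumours all lay above all control tumours on their brightest probe set, and neither passed the test over all probe sets. Nos2 had the opposite sign, and control tumour 3 lay within its Bmp4 range. Arg2 was higher on average on both of its probe sets. The brightest probe sets of Slc7a1, Ass1 and Odc1 changed sign when control tumour 1 was left out. No member passed limma's test at an adjusted p under 0.05, with 6 tumours (0 of 15 probe sets, percent called over all probe sets 0% in either direction) or without control tumour 1 (0 of 15, against 0.00888% of all probe sets, 0.00222% higher and 0.00666% lower).

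**Figure D1:**
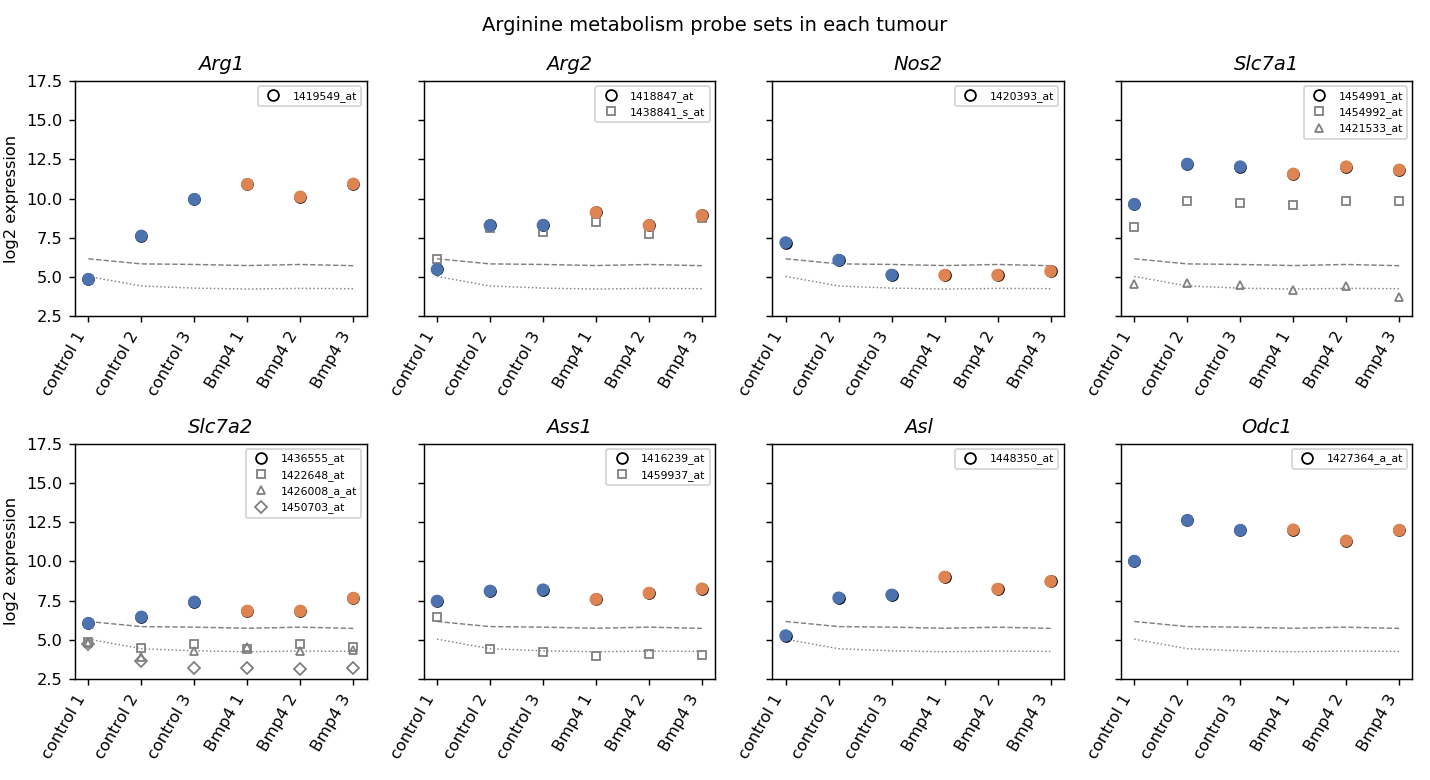
Log2 expression (vertical axis) of the 15 probe sets in each tumour, 1 panel per gene. Filled circles are the brightest probe set of the gene (blue, control; orange, Bmp4), open symbols are its other probe sets, and the dashed and dotted lines join each array's median and 25th percentile. Arg1 runs from 4.86 in control tumour 1 to 10.94 in Bmp4 tumour 3, while Nos2 in control tumour 3 and in each Bmp4 tumour sits below the array median.

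Arg1, the cytosolic arginase of liver and of activated myeloid cells, has a single probe set, 1419549_at. It measured 4.86, 7.62 and 9.96 across control tumours 1 to 3, against 10.92, 10.12 and 10.94 across Bmp4 tumours 1 to 3. The groups did not overlap, but control tumour 3 lay 0.15 under the lowest Bmp4 tumour, and the control tumours were spread far more widely than the Bmp4 tumours (SD 2.56 against 0.47, n = 3 each). The value of control tumour 1 lay below the 25th percentile of its array (5.04), so the size of the difference with all tumours is uncertain.

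The Arg1 difference, Bmp4 minus control, was 3.18 ± 1.21 on the log2 scale (SE; limma adjusted p = 0.499, unadjusted p = 0.037), or 9.04-fold, with a 95% interval of 0.25 to 6.10. Without control tumour 1 it was 1.87 ± 0.67 (SE; limma adjusted p = 0.341, unadjusted p = 0.030), or 3.64-fold, with an interval of 0.24 to 3.49. Against control tumour 3 alone it was 0.70. In the authors' deposited table the ratio of Arg1 is 4.85 and its adjusted p 0.530. Arg1 was higher in all 3 Bmp4 tumours than in any control tumour, and its size depended on which control tumours were kept.

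Arg2, the mitochondrial arginase, was measured by 2 probe sets. On 1418847_at it was 5.49, 8.30 and 8.32 across control tumours 1 to 3, against 9.12, 8.30 and 8.93 across Bmp4 tumours 1 to 3. Bmp4 tumour 2 lay level with control tumours 2 and 3, so the groups overlapped. The difference was 1.42 ± 0.80 (SE; limma adjusted p = 0.499), and 0.48 ± 0.26 (SE; adjusted p = 0.445) without control tumour 1, with an interval of -0.15 to 1.10. On 1438841_s_at it was 6.13, 8.13 and 7.85 across control tumours, against 8.48, 7.78 and 8.79 across Bmp4 tumours, again with Bmp4 tumour 2 among the controls. There the difference was 0.98 and then 0.36.

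Nos2 makes nitric oxide in quantity when macrophages meet interferon-gamma or bacterial products. Its probe set, 1420393_at, measured 7.20, 6.08 and 5.13 across control tumours 1 to 3, against 5.13, 5.12 and 5.37 across Bmp4 tumours 1 to 3. Control tumours 1 and 2 stood above the rest, and control tumour 3 could not be told from the Bmp4 tumours. In 4 of the 6 tumours Nos2 was dimmer than the median probe set of its array. The difference was -0.93 ± 0.52 (SE; limma adjusted p = 0.499), with an interval of -2.19 to 0.33. It was -0.40 ± 0.29 (SE; limma adjusted p = 0.533) without control tumour 1, and against control tumour 3 alone it was 0.07, the opposite sign.

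Whether Arg1 moved otherwise than Nos2 was tested by subtracting the log2 values of the 2 probe sets within each array. This quantity was -2.34, 1.54 and 4.83 across control tumours 1 to 3, against 5.79, 5.0 and 5.57 across Bmp4 tumours 1 to 3. The groups did not overlap, with a shift of 4.11 (exact two-sided permutation p = 0.1, adjusted p = 0.15 over 3 pairs of genes), and 2.27 without control tumour 1 (exact permutation p = 0.1, adjusted p = 0.15). It was 0.62 with control tumours 1 and 2 left out, and 3.91 with control tumours 1 and 3 left out. With these numbers of tumours, 0.1 is the smallest p the exact test can give. Arg1 and Nos2 also differ in brightness. On control tumour 1, probe sets of the brightness of Arg1 had a median of -1.73 against the mean of the other tumours. For probe sets of the brightness of Nos2 the median was 1.04. The part of this, and of the smaller departure of control tumour 2 described below, in the Arg1 against Nos2 shift was not tested. Arg1 against Arg2 shifted by 1.76 and then 1.39, also without overlap (exact permutation p = 0.1 and adjusted p = 0.15 in both). With control tumours 1 and 2 left out it was 0.23, and with control tumours 1 and 3 left out 2.55. Slc7a1 against Slc7a2 shifted by 0.05 and then -0.48, with overlap (exact permutation p = 0.9 and 0.5).

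Slc7a1, also called CAT1, is the widely expressed arginine transporter and the cell-surface receptor of ecotropic mouse retroviruses. On 1454991_at it was 9.65, 12.21 and 12.04 across control tumours 1 to 3, against 11.58, 12.04 and 11.84 across Bmp4 tumours 1 to 3. Control tumour 1 was the lowest and control tumour 2 the highest. The difference was 0.52 ± 0.70 (SE; limma adjusted p = 0.626), and -0.31 ± 0.18 (SE; adjusted p = 0.470) without control tumour 1, with an interval of -0.75 to 0.13. On 1454992_at the values were 8.17, 9.83 and 9.75 across control tumours, against 9.58, 9.85 and 9.83 across Bmp4 tumours, and the difference was 0.50 and then -0.04. The other probe set, 1421533_at, was dim, between 3.70 and 4.64, below the array median in all 6 tumours. It was lower in every Bmp4 tumour than in any control tumour, by a gap of 0.03, and its difference was -0.45 in both settings.

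Slc7a2, also called CAT2, is the transporter that activated macrophages are known to induce together with arginine-using enzymes. Its 4 probe sets differed in brightness. The brightest, 1436555_at, measured 6.05, 6.46 and 7.42 across control tumours 1 to 3, against 6.84, 6.84 and 7.66 across Bmp4 tumours 1 to 3. The groups overlapped through control tumour 3, and the difference was 0.47 ± 0.44 (SE; limma adjusted p = 0.522), or 0.17 ± 0.37 (SE; adjusted p = 0.843) without control tumour 1. The other 3 probe sets lay below the array median in all 6 tumours. They differed by -0.14 (1422648_at), 0.10 (1426008_a_at) and -0.67 (1450703_at), and by -0.04, 0.33 and -0.22 without control tumour 1. The last of these lay below the 25th percentile in all 6 tumours, so no level of Slc7a2 is read from it.

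Ass1, argininosuccinate synthase, catalyses the rate-limiting step in the return of citrulline to arginine. On 1416239_at it was 7.47, 8.11 and 8.19 across control tumours 1 to 3, against 7.58, 7.98 and 8.26 across Bmp4 tumours 1 to 3. The groups covered nearly the same range. The difference was 0.015 ± 0.32 (SE; limma adjusted p = 0.977), with an interval of -0.75 to 0.78, and -0.21 ± 0.22 (SE; adjusted p = 0.653) without control tumour 1. The dim probe set 1459937_at measured 6.45, 4.42 and 4.23 across control tumours, against 3.97, 4.12 and 4.06 across Bmp4 tumours. These groups did not overlap, but 5 of the 6 values lay below the 25th percentile of their arrays. Its difference was -0.98, and -0.27 without control tumour 1.

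Asl, argininosuccinate lyase, releases arginine in the step after Ass1. Its probe set, 1448350_at, was 5.27, 7.68 and 7.86 across control tumours 1 to 3, against 9.0, 8.23 and 8.73 across Bmp4 tumours 1 to 3. The lowest Bmp4 tumour lay 0.37 above the highest control tumour. The difference was 1.72 ± 0.72 (SE; limma adjusted p = 0.499, unadjusted p = 0.052). Without control tumour 1 it was 0.88 ± 0.24 (SE; limma adjusted p = 0.313, unadjusted p = 0.011), or 1.85-fold, with an interval of 0.29 to 1.48, and against control tumour 3 alone it was 0.79. Unlike the Arg1 difference, that of Asl was of similar size in the last 2 settings. In the authors' deposited table the ratio of Asl is 1.89 and its adjusted p 0.523.

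Odc1 turns ornithine into putrescine, the start of polyamine synthesis. On 1427364_a_at it was 10.02, 12.62 and 11.99 across control tumours 1 to 3, against 12.02, 11.31 and 11.99 across Bmp4 tumours 1 to 3. Control tumour 1 was the lowest and control tumour 2 the highest of all. The difference was 0.23 ± 0.68 (SE; limma adjusted p = 0.821), with an interval of -1.41 to 1.88, and -0.53 ± 0.29 (SE; adjusted p = 0.453) without control tumour 1. In the authors' deposited table the ratio of Odc1 is 0.654.

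**Figure D2:**
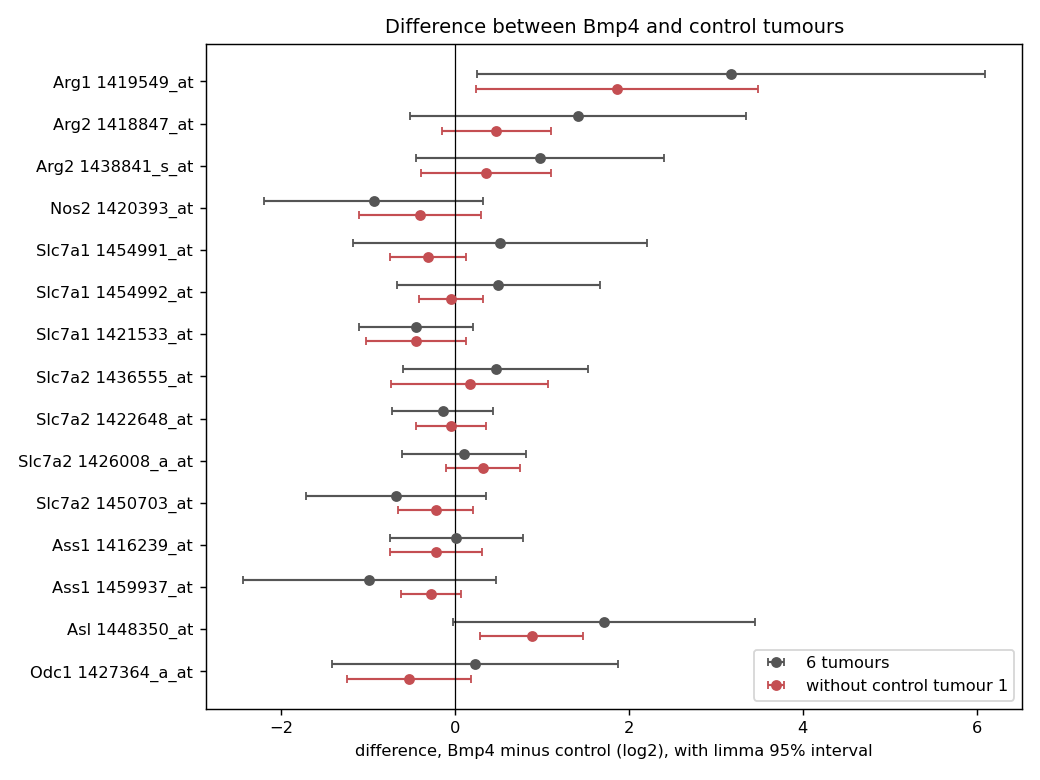
Difference in log2 expression, Bmp4 minus control (horizontal axis), of each of the 15 probe sets with its 95% limma interval, for all 6 tumours (grey) and without control tumour 1 (red). The intervals of Arg1 lie above 0 in both settings and that of Asl without control tumour 1, before any adjustment for the number of probe sets.

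The groups separated in the members about as often as over all probe sets. With all 6 tumours the groups did not overlap in 4 of 15 probe sets, which were Arg1 and Asl (higher) and the dim probe sets of Slc7a1 and Ass1 (lower). Over all 45037 probe sets this held for 25.6% (10.6% higher and 14.9% lower). With control tumour 1 left out it held for 6 of 15, against 33.0% of all (14.0% higher and 19.0% lower). One gene, Arg1 (1 of 15 probe sets, higher), had an unadjusted p under 0.05 with all 6 tumours, against 5.69% of all probe sets (3.89% higher and 1.81% lower). Arg1 and Asl (2 of 15) did so without control tumour 1, against 13.4% of all (7.70% higher and 5.72% lower). The median difference of the 15 was 0.23, and -0.04 without control tumour 1, against -0.20 and -0.06 over all probe sets.

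The position of control tumour 1 followed the brightness of the probe set in the members as it did on the whole array. It was the lowest of the 6 tumours in all 8 member probe sets among the brightest 25%, among them Arg1, Asl and Odc1, and the highest in all 3 between the 25th percentile and the median of brightness, among them Nos2. For Arg1 it lay 5.05 log2 units under the mean of the other 5 tumours, further than the median of -1.73 for probe sets of that brightness, and for Nos2 it lay 1.83 above, where the median at its brightness was 1.04. The part of this in the member differences with all 6 tumours was not tested. The differences without control tumour 1 do not use that array. They do use control tumour 2, which departed in the same direction by less. Its interquartile range was 3.35, against 3.63 to 3.77 in control tumour 3 and the Bmp4 tumours. Its 25th percentile was 4.43, against 4.24 to 4.30, and its hybridization controls averaged 11.23, against 10.04 to 10.66. The part of this in the member differences was not tested. The Actb 3' minus 5' difference still separated the 5 tumours other than control tumour 1 (2.62 and 4.18 in control tumours, 1.44 to 2.33 in Bmp4 tumours). The Gapdh difference separated these tumours too (3.93 and 5.31 in control tumours, 1.62 to 3.13 in Bmp4 tumours). The part of either in the Arg1 and Asl differences cannot be told apart from the group.

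Arg1 and Nos2 in a tumour are known from myeloid cells above all, so marker lists were read beside them. In these bulk samples a larger number of cells and more RNA per cell cannot be told apart. Macrophage and monocyte markers averaged 7.92, 7.75 and 9.86 across control tumours 1 to 3, against 10.25, 9.84 and 9.47 across Bmp4 tumours 1 to 3 (16 of 17 measured). Control tumour 3 lay within the Bmp4 range for this list, as it did for Nos2, while for Arg1 it lay just under that range. Of the 16 genes, 15 were positive with all tumours and 16 without control tumour 1. Of the 12153 genes brighter than the median of all probe sets, 8249 and then 6792 were positive. In 2 of the 16 the groups did not overlap, both higher, in both settings (all genes, 12.9% higher, and 15.9% without control tumour 1). Lyz2, which encodes a lysozyme of macrophages and neutrophils, differed by 2.35, the scavenger receptor Cd68 by 3.0 and the mannose receptor Mrc1 by 2.49, and these were 1.87, 1.67 and 1.57 without control tumour 1. The groups overlapped in Cd68 and Mrc1 and not in Lyz2. C1qb, the 1 negative gene with all tumours, differed by -0.15 and Csf1r by 0.35, then by 0.64 and 0.76, both with overlap. Chil3 and Retnla, which alternatively activated mouse macrophages are known to express with Arg1, were both highest in control tumour 3, at 7.86 and 10.76, and differed by 0.95 and 0.74, then by 0.42 and 0.67. Neutrophil markers averaged 7.12 to 8.00 across control tumours, against 7.18 to 7.35 across Bmp4 tumours and overlapped. Singly, 3 of the 10 measured were positive and 7 negative, then 4 and 6. In Camp, Mmp8 and Mpo (3 of 10) the groups did not overlap, all lower, in both settings. The share of all genes was 13.6% lower, and 18.3% without control tumour 1. Control tumour 1 was the highest in each of these genes. The mean of 7 T cell markers was 6.37 to 7.47 across control tumours, against 8.17 to 8.30 across Bmp4 tumours, without overlap. Singly, 5 of the 7 did not overlap, all higher, in both settings (all genes, 12.9% higher, and 15.9% without control tumour 1). Cd3e and Cd4 overlapped and differed by 0.05 and 0.02, then by 0.39 each. None of these markers was below the 25th percentile on all 6 arrays. The part of these cells in the Arg1 and Nos2 values was not tested.

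**Figure D3:**
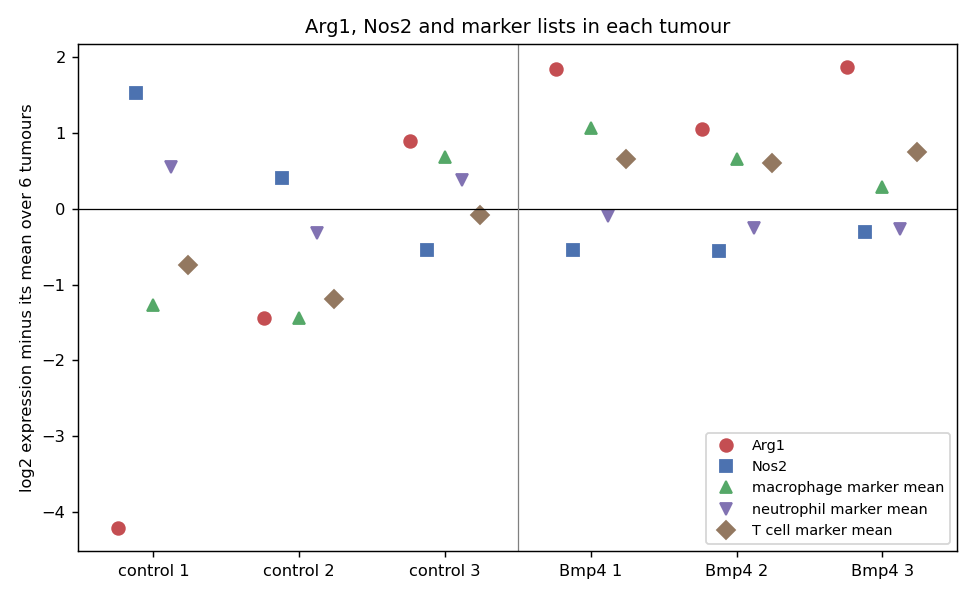
Log2 expression minus its own mean over the 6 tumours (vertical axis) of Arg1, Nos2 and the mean of 3 marker lists in each tumour, control to the left of the vertical line and Bmp4 to the right. Arg1 runs from -4.21 in control tumour 1 to 1.87 in Bmp4 tumour 3, the macrophage list from -1.44 in control tumour 2 to 1.07 in Bmp4 tumour 1, and Nos2 from 1.53 in control tumour 1 to -0.55 in Bmp4 tumours 1 and 2.

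The genes with values most like those of Arg1 were found by the root mean square distance between log2 values centred on each gene's own mean, over 20400 other genes. Over all 6 tumours the closest were Trf (transferrin, distance 0.37), Pcna (the sliding clamp of DNA replication, 0.45), the C-type lectins Clec4n (0.46) and Clec4a3 (0.48), and Cops6 (a COP9 signalosome subunit, 0.52), where the median distance of all genes was 2.27. Over the 5 tumours without control tumour 1 they were Cpa3 (0.08), H2-DMb1 (0.15), Tpsab1 (0.17), Sla (0.23) and Cd48 (0.25), where the median was 1.24. Cpa3 and Tpsab1 encode proteases of mast cells, and H2-DMb1 a chain that loads peptides onto MHC class II. Cpa3 measured 4.92 and 7.11 in control tumours 2 and 3 and 8.23, 7.26 and 8.24 in Bmp4 tumours 1 to 3, while control tumour 1 was at 5.69. The order of these 5 tumours in Cpa3 was thus the order in Arg1. No gene was among the closest 5 in both settings.

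For Nos2 the closest over all 6 tumours were Prokr2 (0.075), a prokineticin receptor, and Slc23a1 (0.081), a vitamin C transporter, followed by the clone-named genes 1700097M23Rik, 3110021A11Rik and 4930591A17Rik. Without control tumour 1 they were Trim30b (0.027), 4930445G23Rik, 1700097M23Rik, B230208B08Rik and Pofut2 (0.047). Prokr2 measured 7.45, 6.20 and 5.46 in control tumours 1 to 3 and 5.28 to 5.57 in Bmp4 tumours. The median distance of all genes was 0.73 and then 0.39. As for Nos2, control tumours 1 and 2 stood above the rest in Prokr2. Several of these genes were dim, with 1700097M23Rik at 3.64 to 5.94 and 4930591A17Rik at 3.72 to 5.74, while 3110021A11Rik was brighter, at 6.91 to 8.77. On the whole array, control tumour 1 was the highest of the 6 tumours for 76.8% of probe sets of the brightness of Nos2. The part of the array departures of control tumours 1 and 2 in this likeness was not tested.

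The genes around the 8 members were read as 62 further genes of arginine, nitric oxide and polyamine metabolism, of which 58 were measured, each by its brightest probe set. With all 6 tumours 37 were positive and 21 negative, with a median of 0.32, against a median of -0.12 over all 20401 genes and 0.44 over the 12153 genes brighter than the median of all probe sets. When control tumour 1 was left out, 31 were positive and 27 negative, with a median of 0.02. By limma 0 passed at an adjusted p under 0.05 in either setting, where 0% of all 20401 genes passed with 6 tumours and 0.00490% without control tumour 1. The groups did not overlap in 9 higher and 10 lower genes (all genes, 12.9%, 13.6% and 26.5% together), and in 11 and 14 without control tumour 1 (15.9%, 18.3% and 34.1% together). Of the 58, 2 were higher and 1 was lower with an unadjusted p below 0.05 in all 6 tumours (all genes, 4.14% higher, 1.35% lower, 5.49% together). The counts were 3 and 6 without control tumour 1 (all genes, 8.87%, 5.56% and 14.4% together). Nor did any of the single lists below hold a gene past the threshold.

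**Figure D4:**
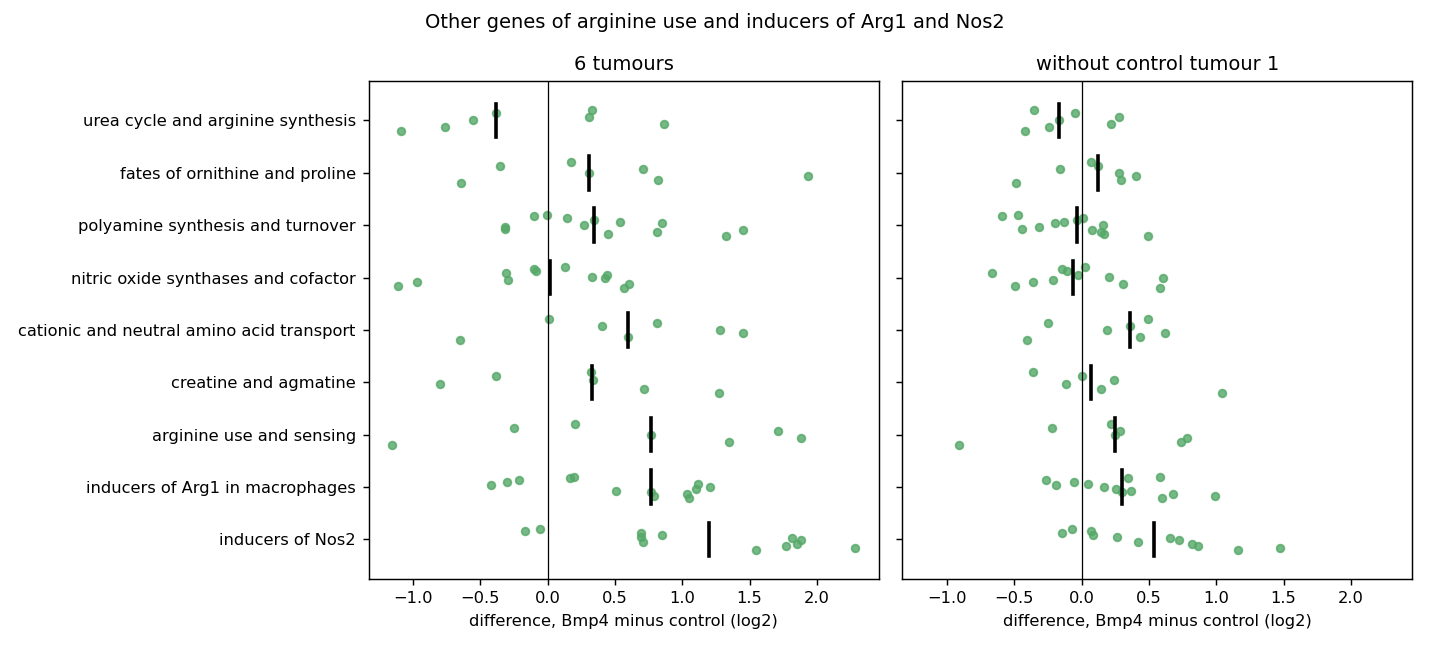
Differences in log2 expression, Bmp4 minus control (horizontal axis), of each measured gene in 7 lists of arginine, nitric oxide and polyamine metabolism and 2 lists of inducers, for all 6 tumours (left) and without control tumour 1 (right). Points are genes and black bars are list medians. The spread narrows without control tumour 1, and the inducers of Nos2 have the highest median in both panels, at 1.2 and 0.54.

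Of the rest of the urea cycle, which is complete in liver, 3 of 7 genes were positive. Otc, the mitochondrial ornithine carbamoyltransferase, was below the 25th percentile on all 6 arrays. Cps1, which feeds it, lay between 4.73 and 6.69, and Nags, which makes the activator of Cps1, between 4.46 and 7.18, both highest in control tumour 1. Got2, the mitochondrial aspartate aminotransferase, was between 8.85 and 11.28. Nags differed by -1.09, and by -0.42 without control tumour 1.

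Among the routes from ornithine, Oat, the ornithine aminotransferase, was 6.52, 10.88 and 11.34 across control tumours 1 to 3, against 11.71, 11.38 and 11.45 across Bmp4 tumours 1 to 3. Its groups did not overlap, and it differed by 1.93, then by 0.40. Pycr1, which makes proline in mitochondria, differed by -0.65 and -0.49, and Prodh, which degrades proline, by 0.82 and 0.29. Slc25a13, a mitochondrial carrier of aspartate and glutamate, differed by 0.31 and 0.28, with overlap. In the polyamine list 9 of 13 genes were positive, and 6 without control tumour 1. Azin1, which frees ornithine decarboxylase from its antizyme, differed by 1.32 and then 0.50, with the groups overlapping. Mtap, which salvages methylthioadenosine, differed by 0.45 and 0.17, Amd1, which supplies decarboxylated S-adenosylmethionine, by 0.81 and 0.14, and Sat1, which acetylates polyamines, by 1.45 and 0.08.

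Among nitric oxide synthases and their cofactor, Pts, which makes an intermediate of tetrahydrobiopterin, was 7.80, 7.69 and 7.82 across control tumours 1 to 3, against 8.43, 8.33 and 8.25 across Bmp4 tumours 1 to 3. The control tumours, control tumour 1 among them, lay together below all Bmp4 tumours, and the difference was 0.57, then 0.58 (limma adjusted p = 0.499 and 0.302). Nos1, the neuronal synthase, differed by -1.11 and -0.49, and Ddah2, which degrades an inhibitor of nitric oxide synthases, by 0.60 and 0.31. Nos1ap, an adaptor that binds Nos1, differed by -0.97 and -0.36. Nos3, the endothelial synthase, was singled out after its values were seen. It was 7.12 and 7.07 in control tumours 2 and 3 against 6.40, 6.49 and 6.40 in Bmp4 tumours 1 to 3, but 6.04 in control tumour 1, so the difference was -0.31 with all tumours and -0.66 without that tumour (limma adjusted p = 0.279, unadjusted p = 0.002). The endothelial marker list, beside it, averaged 6.68 and 7.33 in control tumours 2 and 3 and 6.49 to 6.73 in Bmp4 tumours. Its part in the Nos3 values was not tested.

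Of the other amino acid transporters, Slc7a11, the cystine transporter, was higher in every Bmp4 tumour (7.14 to 7.75) than in any control tumour (6.51 to 7.05) and differed by 0.60, then 0.43. Slc7a3, another cationic transporter, was lower in every Bmp4 tumour and differed by -0.65 and -0.41. Slc7a7, which exports arginine with Slc3a2, differed by 1.45 and 0.62, and Slc3a2 by 1.28 and 0.19, both with overlap. Of creatine synthesis, Gatm, which joins arginine to glycine, was 6.29 in control tumour 2 and 8.36 to 9.27 in control tumour 3 and the Bmp4 tumours. It differed by 1.27 and 1.05, Gamt, the next enzyme, by 0.71 and 0.14, and the creatine kinases Ckm and Ckb by -0.80 and 0.34, then -0.12 and 0.24.

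In the list of arginine use and sensing, the groups did not overlap in 5 of 7 genes, 3 higher and 2 lower, in both settings (all genes, 26.5% and 34.1%). Castor2, a partner of the arginine sensor of the mTORC1 pathway, was 9.31, 8.61 and 8.54 across control tumours 1 to 3, against 7.87, 7.46 and 7.65 across Bmp4 tumours 1 to 3. It differed by -1.16 ± 0.30 (SE; limma adjusted p = 0.499). The 5 tumours other than control tumour 1 gave -0.91 (limma adjusted p = 0.269). Prmt5 and Prmt1, which methylate arginine in proteins, differed by 1.35 and 1.88, then by 0.74 and 0.79. Slc38a9, the lysosomal arginine sensor, differed by 0.77 and then 0.25. Castor1, the arginine sensor itself, was the other lower gene and differed by -0.25 and -0.22.

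Of 12 known inducers of Nos2, 0 passed at an adjusted p under 0.05. Their differences were positive in 10 in both settings, with a median of 1.2 and then 0.54. Of the 12153 genes brighter than the median of all probe sets, 8249 were positive with 6 tumours and 6792 without control tumour 1, with medians of 0.44 and 0.07. In 7 of the 12 the groups did not overlap, all higher, in both settings (all genes, 12.9% higher, and 15.9% without control tumour 1). Among the 12153 brighter genes this held for 2482, and for 2752 without control tumour 1. Ifngr1, a chain of the interferon-gamma receptor, was 7.21, 7.93 and 8.81 across control tumours 1 to 3, against 9.86, 9.10 and 9.63 across Bmp4 tumours 1 to 3, and differed by 1.55 and 1.16. Ifng itself was 5.05, 6.39 and 8.57 across control tumours, against 8.32, 8.88 and 9.67 across Bmp4 tumours, with overlap through control tumour 3, and differed by 2.29 and 1.47. Tlr4, the receptor of lipopolysaccharide, differed by 1.85 and 0.82.

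Of the inducers of Arg1 in macrophages, 10 of 13 were positive in both settings, with a median of 0.77 and then 0.30, and 0 passed. Of the 12153 genes brighter than the median of all probe sets, 8249 and then 6792 were positive, with medians of 0.44 and 0.07. The 3 negative genes were Cebpb (-0.42, then -0.19), Il13 (-0.30, then -0.06) and Il13ra1 (-0.21, then -0.26). The groups did not overlap in 1 of the 13, Il4ra, with all tumours (all genes, 12.9% higher), and in 2, Il4ra and the cytokine gene Il4, without control tumour 1 (all genes, 15.9% higher). Il4ra, the receptor chain shared by interleukins 4 and 13, was 7.94, 6.82 and 7.86 across control tumours 1 to 3, against 8.74, 7.99 and 8.26 across Bmp4 tumours 1 to 3, and differed by 0.79 and 0.99. Csf1, the macrophage growth factor, differed by 1.05 and 0.60, Il10ra by 1.03 and 0.68, and Stat3, which carries the interleukin 10 signal, by 0.77 and 0.30, each with overlap.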

How the data were processed

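RNA of 6 tumours was measured on Affymetrix arrays after labelling with a kit that primes at the 3' end, per the labels. The authors deposited log2 expression values for the probe sets; RMA and Partek 6.6 are named in the submitters' processing notes. The authors' deposited analysis of variance lists, per the file headers, the Bmp4 to control ratio, its p-value before and after adjustment, and further scores (signed fold change, F and sums of squares) that were not used. The arrays behind it are not stated. Groups and tumour numbers came from the labels' titles.

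The 64 array controls were left out and 45037 probe sets were fitted in R 4.3.3 with limma 3.58.1 (lmFit, eBayes, two-sided, Benjamini-Hochberg over all of them, threshold 0.05). In lists a gene stands for its brightest probe set, by the mean of 6 arrays, and symbols were updated through a RefSeq table of GRCm38.p6, used for names alone. Dim probe sets were kept; dim is judged from the percentiles of each array, not from a background call. The number of arrays limits the precision. All probe sets of the 8 genes are given; of each other list, the 4 genes with the smallest p were to be named, and the 5 genes closest to Arg1 and to Nos2. One gene that this rule names is not reported here. Further marker genes named beside these, Il4, Castor1, Nos3, Cebpb, Il13 and Il13ra1 were chosen after their values were seen. The members and lists were chosen with earlier results of these data known.

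The fit was tested on simulated data, with 200 of 45037 probe sets changed and the moderated spread of each probe set. With the spread of 6 arrays it recovered 0% of 4-fold and 71.7% of 8-fold changes, and without control tumour 1 it recovered 0% of 2-fold and 96.0% of 4-fold changes. The simulated noise was independent between probe sets, equal in both groups and without shifts of whole arrays. The real arrays differ from this, so these shares do not say how many such changes would be called in these tumours. The closing section gives the alternatives tried. Array weights were estimated gene by gene, since the default estimate did not converge.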

Additional observations from a re-analysis of the deposited data

How the results depend on the processing

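No member passed limma's adjusted p under 0.05 in any alternative run. Arg1 and Asl stayed positive in all of them. The alternatives to the fit of 6 tumours gave 0.70 to 4.42 and 0.79 to 2.18 (limma adjusted p, or that of the authors' deposited table, 0.085 to 0.724 and 0.103 to 0.724). The ends of both ranges of differences came from runs that left out control tumours. Over all probe sets, 0 were called with 6 tumours, and array weights called 32 higher and 21 lower. Leaving out each tumour in turn called 0 to 1 higher and 0 to 3 lower. From the 1 higher and 3 lower called without control tumour 1, the higher count went to 3 after renewed quantile normalization, 4 after centring on the 75th percentile, 4 with the brightest probe set of each gene, 5 with gene means, and 0 with array weights, with the replicate block or at an adjusted p under 0.01. The lower count went to 0 without the dim 50%, with the brightest probe sets and with the replicate block. Leaving out a further tumour called 0 higher and 0 to 2 lower. A lone control tumour was then assumed to vary like the others. Same-numbered tumours correlated at -0.13, -0.22 and -0.04 in their deviations from the group means, and differently numbered ones at -0.09 to 0.20. With so few tumours in a group, these values cannot settle whether same-numbered tumours were handled together. The replicate block called 0 probe sets in both sets of tumours, and no tumour correlated best with its own number.

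Signs turned as follows with 6 tumours; the cause was not tested. Quantile normalization gave -0.078 and -0.031 for Slc7a1 (1454991_at, 1454992_at), 0.19 for Slc7a2 (1422648_at), -0.32 for Ass1 and -0.33 for Odc1, and moved the Slc7a1 against Slc7a2 shift to -0.62. Array weights gave -0.32 and -0.029 for the same Slc7a1 probe sets, -0.12 for Ass1 and -0.54 for Odc1. Centring on the 75th percentile gave -0.20 for Slc7a2 (1426008_a_at), -0.29 for Ass1 and -0.070 for Odc1, and centring on medians gave 0.043 for Slc7a2 (1422648_at). Gene means gave -0.061 for Slc7a2 and -0.48 for Ass1. Without control tumours 1 and 2, Nos2 was 0.073, Slc7a1 -0.22 and -0.0029, Slc7a2 -0.31 (1436555_at) and 0.012 (1450703_at), Ass1 -0.25 and Odc1 -0.21. The authors' deposited table gives, as log2 of its ratio, -0.21 and -0.043 for Slc7a1, 0.083 for Slc7a2 (1422648_at) and -0.61 for Odc1. Leaving out each tumour in turn gave -0.31 to 0.97 and -0.042 to 0.79 for Slc7a1, -0.11 to 0.33 for Slc7a2 (1426008_a_at), -0.21 to 0.19 for Ass1, -0.53 to 0.77 for Odc1 and -0.48 to 0.60 for the Slc7a1 against Slc7a2 shift.

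With control tumour 1 already left out, signs turned for Slc7a1 (1454992_at) at 0.026 with median centring and 0.043 with the replicate block. Slc7a2 (1422648_at) turned to 0.061 with quantile normalization, 0.025 with median centring and 0.035 with the block. Leaving out a further tumour gave -0.88 to 0.073 for Nos2, -0.091 to 0.043 for Slc7a1 (1454992_at), -0.31 to 0.65 (1436555_at), -0.16 to 0.078 (1422648_at) and -0.45 to 0.012 (1450703_at) for Slc7a2, and -1.04 to 0.084 for the Slc7a1 against Slc7a2 shift. The Arg1 against Nos2 shift was 2.27 to 5.85 when each tumour was left out of the 6, and 0.62 to 3.91 when a further one was. The Arg1 against Arg2 shift was 1.37 to 2.53, and then 0.23 to 2.55.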
